A study of Mus musculus with 16 samples.

Results

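The 8 genes described here mark the B cell lineage. Of 17644 genes counted in the naive spleen matrix and 32285 in at least 1 CD8 matrix (16243 in all 9), they were followed through mouse spleen and kidney allografts. They were Cd79a, Cd79b, Ms4a1, Cd22, Fcer2a, Cr2, Pax5, and Bank1, taken by name and not by any measured value. Their unique molecular identifiers (UMIs, 1 per captured transcript) were counted in B cells of naive spleen, by subset, then in the 9 matrices deposited as CD8+ T cells, and last in the immune cells of rejecting kidneys. Naive spleen came from C57BL/6J WT mice with no transplant. Accepted grafts were, per the study's methods, DBA/2J kidneys in untreated C57BL/6J recipients, taken with the recipient spleen at 1, 3, and 24 weeks. Rejecting grafts were C57BL/6J kidneys placed in DBA/2J recipients and taken with the recipient spleen at 1 week, although the strain label of every sample reads C57BL/6J, WT. All mice were male, no age is given in the labels, and all cells were sorted as viable and CD45+, the surface marker of leukocytes. Tags in the cell barcodes told 5 naive libraries (NS1 to NS5) apart. They also told apart 3, 5, and 3 accepted kidney libraries at 1, 3, and 24 weeks (7K, TK, 6MK), as many recipient spleen libraries (7S, TS, 6MS), 2 rejecting kidney libraries (R7K), and 3 rejecting spleen libraries (R7S). The study's methods treat each mouse as its own sample, but no label ties a tag to a mouse, so p-values measure the spread between these libraries only.

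B lymphocytes sense antigen with surface immunoglobulin, which cannot signal by itself. Cd79a and Cd79b encode the paired signaling chains of this receptor. Ms4a1 encodes the membrane protein CD20. Cd22 encodes a sialic acid-binding lectin that dampens receptor signals, and Bank1 encodes a scaffold protein of the receptor pathway. Cr2 encodes the complement receptors CD21 and CD35, which lower the threshold for activation, and Fcer2a encodes CD23, the low-affinity IgE receptor. Pax5 encodes the transcription factor that holds cells in the B lineage, and it is shut off when B cells become antibody-secreting plasma cells. In the spleen, follicular B cells recirculate and carry much CD23, marginal zone B cells sit at the blood sinus and carry much CD21, and transitional B cells are recent bone marrow emigrants marked by CD93.

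In the mm10 build (GENCODE M21), Cd79a lies at chr7:24897381-24902197 and Cd79b at chr11:106311341-106314762. Ms4a1 spans chr19:11249675-11266241, Cd22 spans chr7:30865402-30880342, and Fcer2a spans chr8:3681737-3694175. Cr2 (chr1:195136811-195176716), Pax5 (chr4:44524757-44710487), and Bank1 (chr3:136053363-136326066) are the longest, and all members except Cd79a lie on the minus strand. RefSeq's promoter table (GRCm38.p6) held 6 of the 8 members. In all, 3 letter patterns were searched on both strands in the 250 bases before each start: the octamer ATGCAAAT, the EBF core CCCNNGGG, and CAGGTG, an E-box bound by E2A. Of 32851 promoters in the table, 1.60% held the octamer, 11.8% the EBF core, and 17.2% the E-box. The promoters of 3 members are shown, for a receptor chain, for the member that sets marginal zone cells apart, and for the member with the longest gene. Only bases ahead of the annotated starts are printed, 5′ to 3′ on the gene's strand, with matches in capitals.
Cd79a (chr7:24897247-24897380, plus strand): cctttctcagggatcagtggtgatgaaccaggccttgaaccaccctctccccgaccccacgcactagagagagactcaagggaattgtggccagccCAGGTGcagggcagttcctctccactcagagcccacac
Cr2 (chr1:195176720-195176969, minus strand): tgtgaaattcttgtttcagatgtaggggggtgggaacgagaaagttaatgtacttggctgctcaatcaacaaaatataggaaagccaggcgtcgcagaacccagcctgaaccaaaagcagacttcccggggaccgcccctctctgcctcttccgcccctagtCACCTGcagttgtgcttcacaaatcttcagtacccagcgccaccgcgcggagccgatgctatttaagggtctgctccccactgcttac
Bank1 (chr3:136326067-136326316, minus strand): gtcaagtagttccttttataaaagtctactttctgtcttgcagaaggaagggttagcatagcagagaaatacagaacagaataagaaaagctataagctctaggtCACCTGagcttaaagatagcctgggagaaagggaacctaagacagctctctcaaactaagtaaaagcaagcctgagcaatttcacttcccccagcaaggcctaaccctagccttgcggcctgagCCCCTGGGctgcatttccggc
The Cd79a match is an E-box 154 bases before the RefSeq start, and that of Cr2 is an E-box, read on the other strand, 88 bases before it. Bank1 holds the E-box, again on the other strand, 145 bases before its start and an EBF core 21 bases before it. Over the 6 members in the table, the E-box was in a promoter of 5 (Cd79a, Cd22, Cr2, Bank1, and 1 of the 3 entries of Fcer2a) and the EBF core in that of 2 (Cd22 and Bank1), while Pax5 held no match and no member held the octamer. The matching windows of Cd22 and Fcer2a lie inside the GENCODE span of the gene, and the Fcer2a entry at the gene's own start held no match. Shares over the table are per entry and not per gene, so the counts over members are not set against them. These matches describe the letters of the window and not sites of binding.

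The CD8 matrices are cells picked by the authors from the CD45+ matrices, and the share of their cells with a Cd8a or Cd8b1 UMI was uneven: 84.8%, 96.8%, and 47.4% in accepted kidney at 1, 3, and 24 weeks, 44.2%, 46.8%, and 94.6% in recipient spleen, 77.2% in rejecting kidney, 100% in rejecting spleen, and 96.1% in naive spleen. The 24-week libraries went against their tissue labels. The libraries labelled kidney at 24 weeks had 6 of 10 kidney parenchyma genes at 0 and Spp1, a secreted protein made by kidney tubules, at 0 to 0.161 CPM (a gene's UMIs per 1000000 UMIs of the same cells), against 6.92 to 20.7 in the kidney libraries of 1 and 3 weeks. Those labelled spleen at 24 weeks had 2 of 10 at 0 and Spp1 at 10.8 to 19.9 CPM, against 0 to 0.226 in the other accepted-recipient spleen libraries. The CD8 matrices did not all list the same genes, and an unlisted gene counted as 0. A gene at 0 may therefore not have been listed. The labels were kept, and each 24-week result is written as that of the labelled libraries, while the comparisons of 1 and 3 weeks set none of them against another group. All 32 libraries shared 1 fit, with its gene filter and estimate of spread, and with only the compared groups in the fit the counts of called members in these comparisons were the same. Depth ran from 153266 to 25960721 UMIs over the 32 CD8 libraries, and rejecting spleen R7S2 was the smallest, with 56 cells. Few cell barcodes were shared between libraries: 0 to 58 in each CD8 matrix, 13 in the rejecting kidney matrix, and 239 in the naive spleen matrix.

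In naive spleen all 8 genes were far higher in B cell-like than in T cell-like cells. Clustering of 47060 cells without the members gave 28825 B cell-like and 309 plasma cell-like cells. Names came from other markers, 13 for B cells, such as Ebf1 and Ighd, and 8 for plasma cells. All 8 were detected in the plasma cell-like cluster, but 0 were among its 10 leading genes. These were immunoglobulin genes such as Ighg2b and genes of dividing cells such as Mki67 and Top2a, among others. Of its cells, 82.8% held UMIs of 3 or more members. CPM are counts of transcript 3′ ends and were not divided by length, so levels of different genes are not compared. B cell-like cells of NS1 to NS5 held Cd79a at 2014, 2261, 2104, 2299, and 2228 CPM. T cell-like cells of the same 5 libraries held it at 8.75, 7.02, 7.67, 11.8, and 11.4 CPM, and natural killer (NK) cell-like cells at 12.5 ± 7.74 CPM (SD, n = 5). The B cell and T cell levels were far apart in every library. Cd79b stood at 1612 ± 58.1 CPM in B cell-like and 18.9 ± 4.52 CPM in T cell-like cells, Ms4a1 at 1459 ± 84.4 and 4.77 ± 2.06 CPM, and Pax5 at 502 ± 29.5 and 2.40 ± 0.548 CPM (SD, n = 5 each). For Cd22 the levels were 306 ± 20.2 and 4.06 ± 1.74 CPM, for Bank1 943 ± 24.2 and 4.31 ± 0.828 CPM, for Fcer2a 449 ± 43.3 and 3.57 ± 1.24 CPM, and for Cr2 575 ± 56.0 and 4.32 ± 0.686 CPM. In the 4 B cell-like clusters, 99.3% to 99.8% of cells held UMIs of 3 or more members, and in the T cell-like clusters 0.169% to 2.94% did.

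Several other clusters also carried the members. Myeloid-like cells held Cd79a at 280 ± 27.0 CPM (SD, n = 5), but only 18.2% to 32.6% of the cells in the myeloid-like clusters had 3 or more members, and these cells held 92.1% to 98.4% of the member UMIs there. A cluster of 1804 cells led by Ikzf2, Foxp3, and Il2ra, genes of regulatory T cells, was left unnamed because it held markers of both T and B cells. It carried Cd79a at 928 ± 61.5 CPM (SD, n = 5), and 97.4% of its cells held 3 or more members at a median of 6238 UMIs per cell, against 2656 in B cell-like cells. Another unnamed cluster, of 127 cells led by Ighg2c, Gzma, and Klra8, held Cd79a at 1103 ± 113 CPM (SD, n = 5), with 3 or more members in 99.2% of its cells. The 224 erythroid-like cells held it at 652 ± 299 CPM (SD, n = 2 libraries), with 3 or more members in 39.3%. The part that droplets with more than 1 cell have in these clusters was not tested.

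B lineage cells were then sorted into subsets by the UMIs that the literature ties to each, after thinning every cell to 2000 UMIs, which left out 4732 of 29134 cells. Plasma cells had at least 10 UMIs of Jchain, the joining chain of secreted antibody. Of the others, transitional cells had a Cd93 UMI, marginal zone cells had at least 2 Cr2 UMIs and no Fcer2a UMI, and follicular cells had an Fcer2a UMI. This gave 12301 follicular, 3602 marginal zone, 402 transitional, and 101 plasma cells, and 7996 cells stayed unassigned. Marker lists that the rule did not use fitted the names in most cases. Highest in their own subset were 7 of 8 marginal zone genes, with Mzb1, also on the plasma list, higher in plasma cells, 6 of 6 transitional genes, and 10 of 10 plasma genes. The plasma list was not a separate check. It held all 8 markers that had named the plasma cell-like cluster, and 99 of the 101 plasma cells were of that cluster. Of 4 follicular genes 2 were highest in follicular cells, Ighd among them, whereas Cxcr5 was higher in marginal zone and Ccr7 in transitional cells. Cell by cell the fit was looser. The cluster led by Fcrl5, S1pr3, and Myof held 2043 of the 3602 marginal zone cells, beside 1021 follicular cells. The cluster led by Iglc1 and Vpreb3 held 142 of the 402 transitional cells, beside 1187 follicular cells. Each subset thus mixes cells of several clusters.

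Fcer2a and Cr2 cut the subsets, so their levels describe the cut and carry no test. Fcer2a stood at 792 ± 48.0 CPM in follicular, 87.2 ± 18.9 CPM in marginal zone, 434 ± 27.5 CPM in transitional, and 28.2 ± 24.6 CPM in plasma cells (SD, n = 5 libraries). The marginal zone value is not 0 because levels were summed over all UMIs, while the rule read the thinned ones. Cr2 stood at 510 ± 60.7 CPM in follicular, 1529 ± 44.0 CPM in marginal zone, 335 ± 62.3 CPM in transitional, and 19.8 ± 18.2 CPM in plasma cells.

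Marginal zone cells carried less Cd79a and more Ms4a1 than follicular cells. Cd79a was at 1750, 1893, 1822, 1990, and 1988 CPM in marginal zone cells of NS1 to NS5 and at 2046, 2295, 2179, 2348, and 2276 CPM in follicular cells. All marginal zone values lay below all follicular values, by 0.24 ± 0.06 on the log2 scale (edgeR with library as a block, log2 fold change of -0.24 ± 0.06 SE, adjusted p = 0.00248). Ms4a1 was at 1619, 1682, 1677, 1694, and 1859 CPM in marginal zone cells and at 1316, 1335, 1340, 1264, and 1520 CPM in follicular cells. Here too the subsets did not overlap (log2 fold change of 0.33 ± 0.07, edgeR adjusted p = 8.18e-05). These 2 were the only calls among the 6 members that the rule did not use, where 30.7% of the 9303 genes tested were called. Cd79b differed by 0.00 ± 0.06, Cd22 by 0.08 ± 0.05, Pax5 by -0.04 ± 0.05, and Bank1 by -0.04 ± 0.06 on the log2 scale, with none called. The Cd79a call was lost with DESeq2 (adjusted p = 0.112) and without the library block (edgeR adjusted p = 0.0621), at log2 fold changes of -0.17 and -0.24. The 2 receptor chains thus stood in another proportion: 0.790 to 0.846 Cd79b UMIs for each Cd79a UMI in marginal zone and 0.673 to 0.721 in follicular cells, with no overlap between the 5 values of each.

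In transitional cells Cd79b and Ms4a1 were higher than in follicular cells. Cd79b was at 1638, 2068, 1944, 2202, and 1919 CPM in transitional cells of NS1 to NS5, against 1475, 1545, 1557, 1597, and 1620 CPM in follicular cells of the same libraries. Every transitional value was above every follicular value (log2 fold change of 0.33 ± 0.07, edgeR adjusted p = 0.000941). Ms4a1 was at 1469, 1828, 1712, 1851, and 2207 CPM in transitional cells, above the follicular value of its own library in 5 of 5, although the groups overlapped (0.42 ± 0.07, edgeR adjusted p = 9.96e-05). These 2 of 6 members were called where 4% of all genes were. Cd79a, at 2513 ± 346 CPM, and Pax5, at 561 ± 49.7 CPM, did not pass, with log2 differences of 0.17 ± 0.07 and 0.12 ± 0.07. Cd22 differed by -0.03 ± 0.09. Bank1 differed by -0.21 ± 0.07 (edgeR adjusted p = 0.0911). Without NS3 Cd79a was also called, at a log2 fold change of 0.22 (edgeR adjusted p = 0.0306). Without doublets and cells with T cell or myeloid markers, Cd79a and Bank1 joined the calls, at 0.18 and -0.19. All 3 subset comparisons share the follicular libraries.

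**Figure D1:**
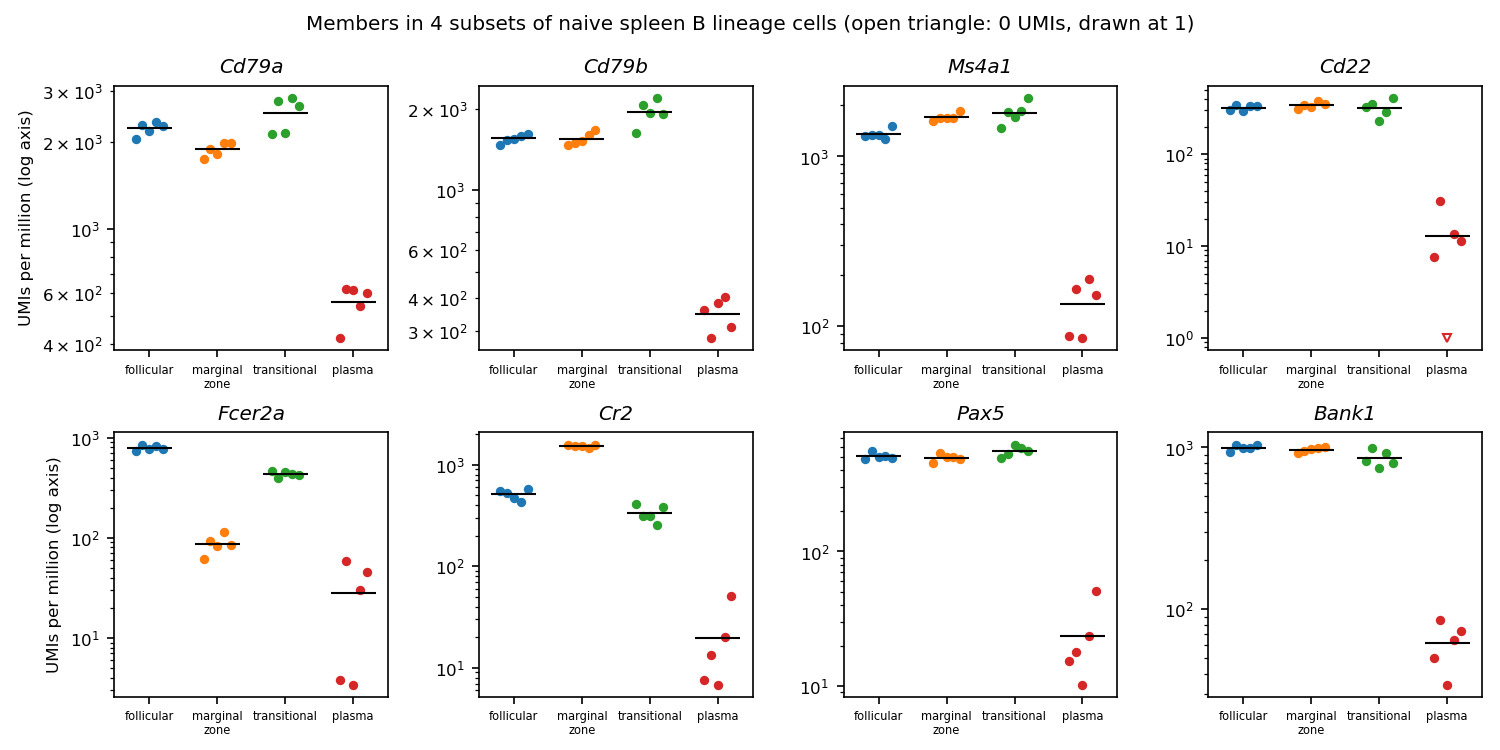
CPM (log axis, a separate range for each gene) of the 8 members in follicular, marginal zone, transitional, and plasma cells of naive spleen. Each point is 1 of 5 libraries, drawn in the order NS1 to NS5, lines are means, and the open triangle marks 0 UMIs; Cd79a and Cd79b fell least in plasma cells, to means of 558 and 348, while Fcer2a and Cr2 helped to define the subsets.

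Plasma cells held less of all 6 members that did not define the subsets, but not to the same degree. Cd79a was at 418, 620, 614, 540, and 599 CPM in plasma cells of NS1 to NS5 and Cd79b at 360, 283, 382, 401, and 311 CPM. Pax5 was at 15.3, 18.0, 10.2, 23.6, and 50.9 CPM, and Cd22 at 7.67, 31.5, 0, 13.5, and 11.3 CPM. All of these values lay below every follicular value. Against follicular cells the log2 fold changes were -2.003 ± 0.08 for Cd79a, -2.15 ± 0.09 for Cd79b, -3.32 ± 0.11 for Ms4a1, -4.07 ± 0.13 for Bank1, -4.57 ± 0.16 for Pax5, and -4.74 ± 0.22 for Cd22. All 6 were called, with edgeR adjusted p from 6.81e-37 for Bank1 to 7.85e-28 for Cd22, where 67.7% of all genes were called. Antibody transcripts fill plasma cells, and the median of all genes was itself at -0.92, so the members' median of -3.70 should be read against that. With totals that leave out immunoglobulin genes, where the median of all genes was -0.15, the log2 fold changes were -1.25 for Cd79a, -1.39 for Cd79b, -3.81 for Pax5, and -3.99 for Cd22. Shares of cells with a UMI ran in the same order: Cd79a was seen in 46.5% and Cd79b in 43.6% of 101 plasma cells, Pax5 in 1.98%, and Cd22 in 0.990%, against 98.1%, 93.8%, 61.5%, and 45.4% of follicular cells. Without doublets and cells with T cell or myeloid markers, only 1, 3, 4, 2, and 1 plasma cells were left in NS1 to NS5. Most of this subset was thus of cells that such a filter takes out. The filter left out 8935 of 29134 B lineage cells, while doublet calls alone marked 945 of all 47060 cells. The plasma cell-like cluster had a median of 9280 UMIs per cell, against 2656 in B cell-like cells. The part of depth in this loss was not tested.

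The rest of the B cell program, 36 listed genes of the receptor pathway and its regulators, was read in the same fits. In marginal zone cells 9 rose and 13 fell against follicular cells, where 30.7% of all genes were called, and their median of -0.04 was also that of all genes. Smallest in p were Bach2, a repressor that holds back plasma cell fate (log2 fold change of -1.25 ± 0.06), Ighd, the heavy chain of IgD (-0.99 ± 0.06), and Blnk, the adaptor next to the kinase Syk (0.56 ± 0.04). In transitional cells 10 rose and 2 fell, where 4% of all genes were called, with a median of 0.13 against 0.05 for all genes. Spib, a transcription factor of B cells, rose by 0.74 ± 0.09, Ighm, the heavy chain of IgM, by 0.50 ± 0.07, and Cd72, a membrane lectin of B cells, by 0.59 ± 0.11. In plasma cells 33 fell and 3 rose, with a median of -2.39 against -0.92 for all genes, of which 67.7% were called. With totals that leave out immunoglobulin genes, a setting chosen for this list after seeing the data, 28 fell and 3 rose, with a median of -1.64 against -0.15 for all genes. The 5 that no longer passed, named after their values were seen, were Cr1l, Blnk, Vav1, Bcl10, and Tnfrsf13b, whose log2 fold changes on these totals ran from -0.56 for Vav1 to 0.13 for Tnfrsf13b. On full totals, Ighm rose by 4.48 ± 0.08, whereas Ighd fell by 4.44 ± 0.13 and Ebf1, a factor needed to start the B lineage, fell by 4.41 ± 0.13. The other two that rose, named after their values were seen, were Pou2af1, a coactivator of immunoglobulin promoters, by 0.38 ± 0.09, and Cd81, a membrane partner of the Cr2 protein, by 0.47 ± 0.11.

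These genes are used to mark B cells rather than T cells, and all 9 CD8 matrices held UMIs of the members. In such summed libraries, fewer B cells and less RNA per cell cannot be told apart. Cd79a was highest in recipient spleen at 1 week, at 344, 420, and 204 CPM in 7S1 to 7S3. Recipient spleen at 3 weeks held 36.9, 83.8, 108, 72.5, and 88.7 CPM in TS1 to TS5, the libraries labelled kidney at 24 weeks 90.03, 94.4, and 29.4 CPM in 6MK1 to 6MK3, and rejecting spleen 116, 26.1, and 71.1 CPM in R7S1 to R7S3. These 3 groups overlapped one another and lay below recipient spleen at 1 week. A lower tier was formed by the libraries labelled spleen at 24 weeks (6.96, 17.0, and 7.31 CPM), naive spleen (8.66, 6.68, 5.75, 10.5, and 8.63 CPM), and accepted kidney at 3 weeks (2.68, 9.63, 7.01, 7.43, and 8.41 CPM), which also overlapped. Lowest were accepted kidney at 1 week (1.94, 0.283, and 1.12 CPM) and rejecting kidney (1.26 and 0.973 CPM), again with overlap.

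**Figure D2:**
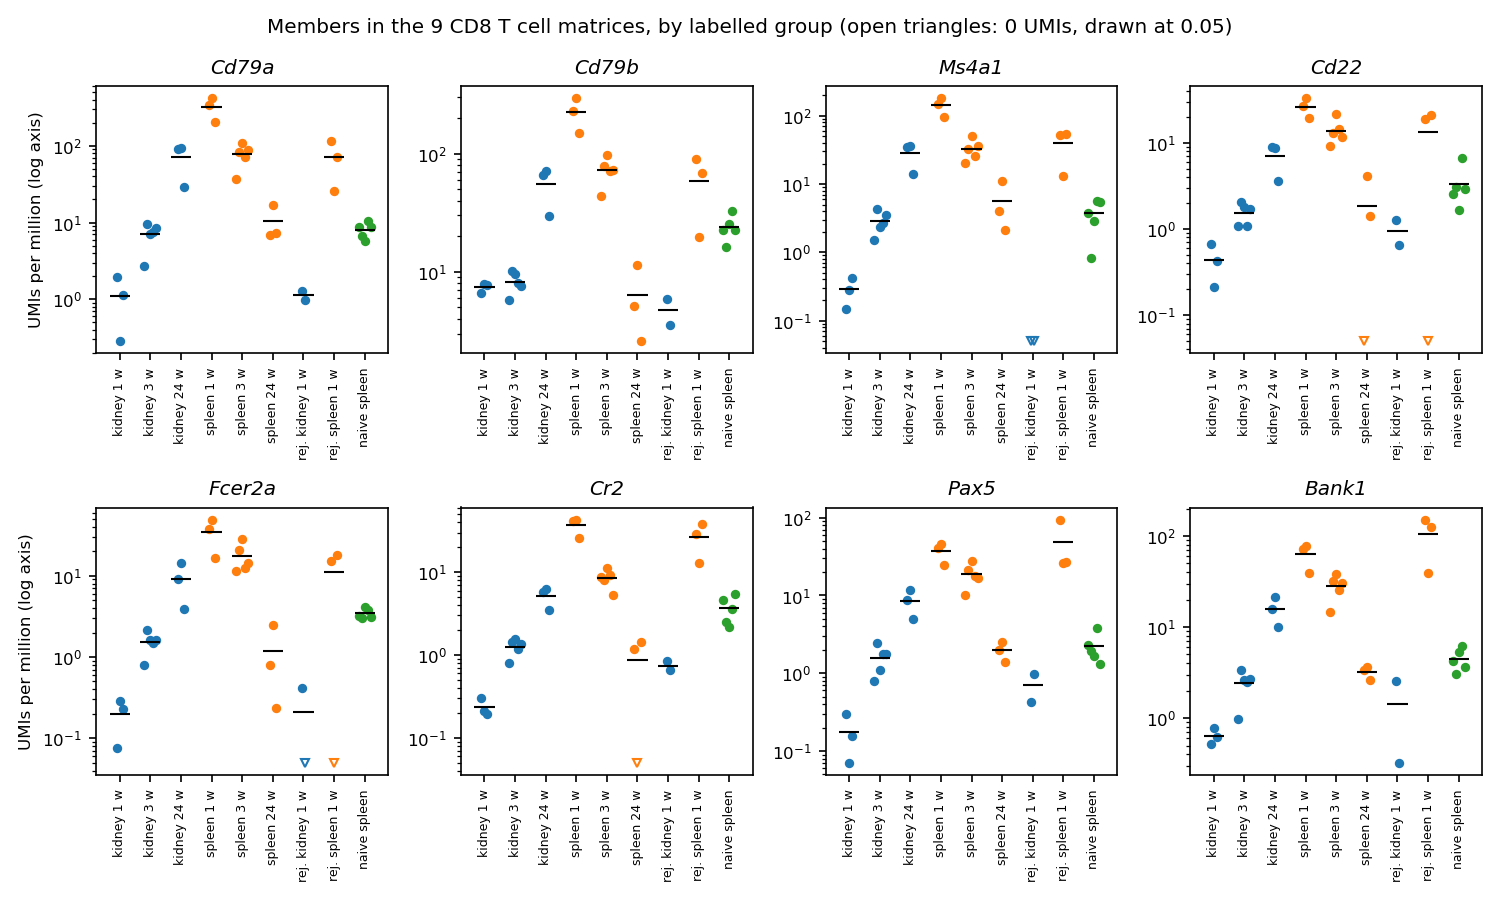
CPM (log axis, a separate range for each gene) of the 8 members in the 9 CD8 T cell matrices by labelled group, with w for weeks and rej. for rejecting. Each point is 1 library, lines are means, and open triangles mark 0 UMIs; Cd79a ran from a mean of 1.11 in accepted kidney at 1 week to 322 in recipient spleen at 1 week, and Cd79b from 4.73 in rejecting kidney to 225.

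In accepted kidney, 7 of 8 members rose from 1 to 3 weeks and Cd79b did not pass. The log2 fold changes were 2.64 ± 0.53 for Cd79a, 3.10 ± 0.64 for Ms4a1, 3.09 ± 0.64 for Pax5, 2.79 ± 0.68 for Fcer2a, 2.39 ± 0.47 for Cr2, 1.89 ± 0.47 for Bank1, and 1.80 ± 0.55 for Cd22. Their edgeR adjusted p ran from 3.00e-05 for Cr2 to 0.00428 for Cd22. Cd79b was at 6.65, 7.93, and 7.67 CPM at 1 week and at 5.80, 10.1, 9.56, 8.12, and 7.51 CPM at 3 weeks, and the groups overlapped (0.14 ± 0.30, edgeR adjusted p = 0.697). Of all 12821 genes tested, 69.2% were called in this comparison, with a median log2 fold change of 0.38 against 2.52 for the members. Absolute levels were low, for Pax5 0.299, 0.0708, and 0.154 CPM at 1 week and 0.803, 2.46, 1.09, 1.78, and 1.79 CPM at 3 weeks, without overlap.

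All 8 members fell in recipient spleen from 1 to 3 weeks, where 46.3% of all genes were called. Cr2 fell by 2.10 ± 0.21 on the log2 scale, Ms4a1 by 2.11 ± 0.26, Cd79a by 2.05 ± 0.28, and Cd79b by 1.63 ± 0.22. Bank1 fell by 1.16 ± 0.23, Pax5 by 0.98 ± 0.25, Fcer2a by 0.95 ± 0.28, and Cd22 by 0.92 ± 0.29 (edgeR adjusted p from 1.14e-09 for Cr2 to 0.00864 for Cd22). The median of all genes was 0.12. Cr2 was at 41.5, 43.1, and 25.5 CPM at 1 week and at 8.76, 7.96, 11.2, 9.16, and 5.29 CPM at 3 weeks, so the groups did not overlap. Without 7S2 the count was 6, with Cd22 and Fcer2a no longer called.

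Set against the spleen of the same time point, accepted kidney held less of every member at 1 and 3 weeks. At 1 week the log2 fold changes were -8.73 ± 0.48 for Ms4a1, -8.17 ± 0.48 for Cd79a, -7.63 ± 0.47 for Pax5, -7.26 ± 0.51 for Fcer2a, -7.23 ± 0.35 for Cr2, -6.58 ± 0.38 for Bank1, -5.87 ± 0.45 for Cd22, and -4.91 ± 0.30 for Cd79b, with 8 of 8 called where 51.3% of all genes were (median of all genes 0.00). At 3 weeks they were -3.56 ± 0.31 for Pax5, -3.53 ± 0.27 for Bank1, -3.52 ± 0.31 for Ms4a1, -3.52 ± 0.34 for Fcer2a, -3.48 ± 0.31 for Cd79a, -3.15 ± 0.34 for Cd22, -3.15 ± 0.24 for Cd79b, and -2.74 ± 0.27 for Cr2, with 8 of 8 called where 59.6% of all genes were (median of all genes 0.21). Kidney and spleen values did not overlap for any member at either time. The share of all genes without overlap is not given here, so this is not read as a trait of the members. Beside this stands the uneven purity given above, with a Cd8a or Cd8b1 UMI in 84.8% and 96.8% of kidney cells and in 44.2% and 46.8% of spleen cells. With only cells holding such a UMI, the log2 fold changes ran from -8.51 for Ms4a1 to -4.74 for Cd79b at 1 week and from -3.63 for Bank1 to -2.77 for Cr2 at 3 weeks, with 8 of 8 called at both times. The shares of all genes called given above are not of the fit with this filter. This filter does not take out the cells with 3 or more members, of which 43.1% and 55.8% in spleen at 1 and 3 weeks held such a UMI, so the part of purity in the result was not tested by it.

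The comparisons with the 24-week libraries turned the other way. From 3 to 24 weeks all 8 members rose in the libraries labelled kidney, by 3.33 ± 0.33 for Cd79a, 3.28 ± 0.34 for Ms4a1, 2.75 ± 0.26 for Cd79b, 2.67 ± 0.31 for Bank1, 2.54 ± 0.40 for Fcer2a, 2.41 ± 0.37 for Pax5, 2.16 ± 0.40 for Cd22, and 2.002 ± 0.31 for Cr2 on the log2 scale, where 65.8% of all genes were called and the median of all genes was -0.42. In those labelled spleen all 8 fell, with log2 fold changes of -3.99 ± 0.54 for Fcer2a, -3.57 ± 0.36 for Cd79b, -3.25 ± 0.43 for Pax5, -3.17 ± 0.42 for Cr2, -3.13 ± 0.38 for Bank1, -3.05 ± 0.49 for Cd22, -2.96 ± 0.41 for Cd79a, and -2.59 ± 0.40 for Ms4a1, where 52.2% of all genes were called and the median of all genes was -0.01. At 24 weeks the libraries labelled kidney held more of all 8 than those labelled spleen, by 2.05 ± 0.55 (Cd22) to 3.17 ± 0.38 (Cd79b), where 45.1% of all genes were called. The kidney-spleen difference changed from 3 to 24 weeks for all 8, by 5.17 ± 0.52 (Cr2) to 6.53 ± 0.67 (Fcer2a) in a test of the change itself, where 61.9% of all genes were called. The differences at the 2 times were opposite in sign for all 8. At 24 weeks they were 3.17 for Cd79b, 3.01 for Fcer2a, 2.81 for Cd79a, 2.44 for Cr2, 2.35 for Ms4a1, 2.27 for Bank1, 2.10 for Pax5, and 2.05 for Cd22, against the values of 3 weeks given above. With the sign of the 24-week difference turned, a value chosen after seeing the data, the change was 0.66 for Cd79a, -0.02 for Cd79b, 1.17 for Ms4a1, 1.10 for Cd22, 0.50 for Fcer2a, 0.30 for Cr2, 1.46 for Pax5, and 1.26 for Bank1, with 0 of 8 called (edgeR, 2 at an unadjusted p under 0.05), where 4% of all genes were called. This turned value follows from the 2 differences already given, so it cannot test the labels. It shows only that the size, the order, and the calls of the change depend on the labelled direction. These comparisons share the libraries of 3 and 24 weeks with each other and with those above, and the kidney parenchyma genes and the shares of cells with a Cd8 UMI moved with them against the labels; their part in the result was not tested.

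Recipient spleen at 1 week held more of all 8 members than naive spleen, where 49.9% of all genes were called and the median of all genes was -0.05. On the log2 scale the difference was 5.30 ± 0.35 for Cd79a, 5.202 ± 0.34 for Ms4a1, 4.004 ± 0.34 for Pax5, 3.77 ± 0.29 for Bank1, 3.30 ± 0.24 for Cr2, 3.29 ± 0.35 for Fcer2a, 3.21 ± 0.24 for Cd79b, and 2.92 ± 0.34 for Cd22. A Cd8a or Cd8b1 UMI was seen in 44.2% and 96.1% of cells in the 2 groups, and the part of this difference in the result was not tested. Rejecting kidney against accepted kidney at 1 week gave 0 calls among the 8 members (edgeR, 0 also at an unadjusted p under 0.05), where 68.4% of all genes were called and the median of all genes was 0.71. DESeq2 and TMM scaling each called 1 member, Cd79b, at log2 fold changes of -1.30 and -1.41. Cd79b was at 5.89 and 3.57 CPM in R7K2 and R7K3, below the 3 accepted values, with an edgeR log2 fold change of -0.69 ± 0.63 (adjusted p = 0.338). The others that were seen differed by -0.01 ± 1.61 for Cd79a, 1.06 ± 1.23 for Cd22, -0.15 ± 2.34 for Fcer2a, 1.63 ± 1.04 for Cr2, 2.01 ± 1.48 for Pax5, and 0.998 ± 1.08 for Bank1 on the log2 scale, with none called. Ms4a1 was at 0 in both rejecting libraries, which allows up to 1.26 and 0.973 CPM, and at 0.149, 0.283, and 0.424 CPM in accepted kidney, so the depth could not show a difference.

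The member UMIs of the CD8 matrices were held by few cells in some groups and spread thinly in others. In recipient spleen at 1 week, 1887 of 11913 cells held UMIs of 3 or more members, and these 15.8% of cells held 92.9% of the member UMIs. In recipient spleen at 3 weeks 5.11% of cells held 72.7%, in the libraries labelled kidney at 24 weeks 2.80% held 79.9%, and in rejecting spleen 8.68% held 89.3%. In accepted kidney at 1 and 3 weeks, by contrast, 4 of 16467 and 2 of 22206 cells were of this kind and held 2.83% and 0.429% of the member UMIs. In naive spleen 0.320% of cells held 6.69%, in the libraries labelled spleen at 24 weeks 0.110% held 6.98%, and in rejecting kidney 2 of 2184 cells held 19.2%. Of the 1887 cells in recipient spleen at 1 week, 43.1% had a Cd8a or Cd8b1 UMI, close to the 44.2% of all cells of that matrix. As a measure that counts cells at equal depth, 20.8% of cells thinned to 1000 UMIs held a member in recipient spleen at 1 week (95% Clopper-Pearson interval, 20.02% to 21.5%), 12.6% at 3 weeks, 5.49% in naive spleen, 3.01% in accepted kidney at 3 weeks, and 1.14% (0.979% to 1.31%) in accepted kidney at 1 week. Without thinning, these shares were 26.8%, 28.7%, 20.04%, 5.90%, and 2.97%, and the order of the 2 spleen groups turned. Thinning left out 313 cells of recipient spleen at 1 week, 53 at 3 weeks, and 1 of naive spleen. Intervals cover counting error only.

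Several results above changed when the cells with 3 or more members were left out. Since these cells were picked by the members' own UMIs, the values are a description of where the UMIs lay. The shares of all genes called given above are of the fits with all cells, so the counts here have no such share beside them. These counts tell which members passed and cannot be set against what all genes did. Accepted kidney against recipient spleen kept 8 of 8 calls at 1 week, with Cd79a at -4.90, and at 3 weeks, with Cd79a at -1.31, and accepted kidney at 3 weeks against 1 week kept its 7. Recipient spleen at 3 weeks against 1 week had 2 of 8 calls left, Cd79a at -0.79 and Pax5, which turned to 1.23. Recipient spleen at 1 week against naive spleen had 2 left, Cd79a at 1.99 and Cd79b at 0.50. The rise in the libraries labelled kidney at 24 weeks was left to Cd79b, at 1.13, and so was their difference from those labelled spleen, at 1.70.

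**Figure D3:**
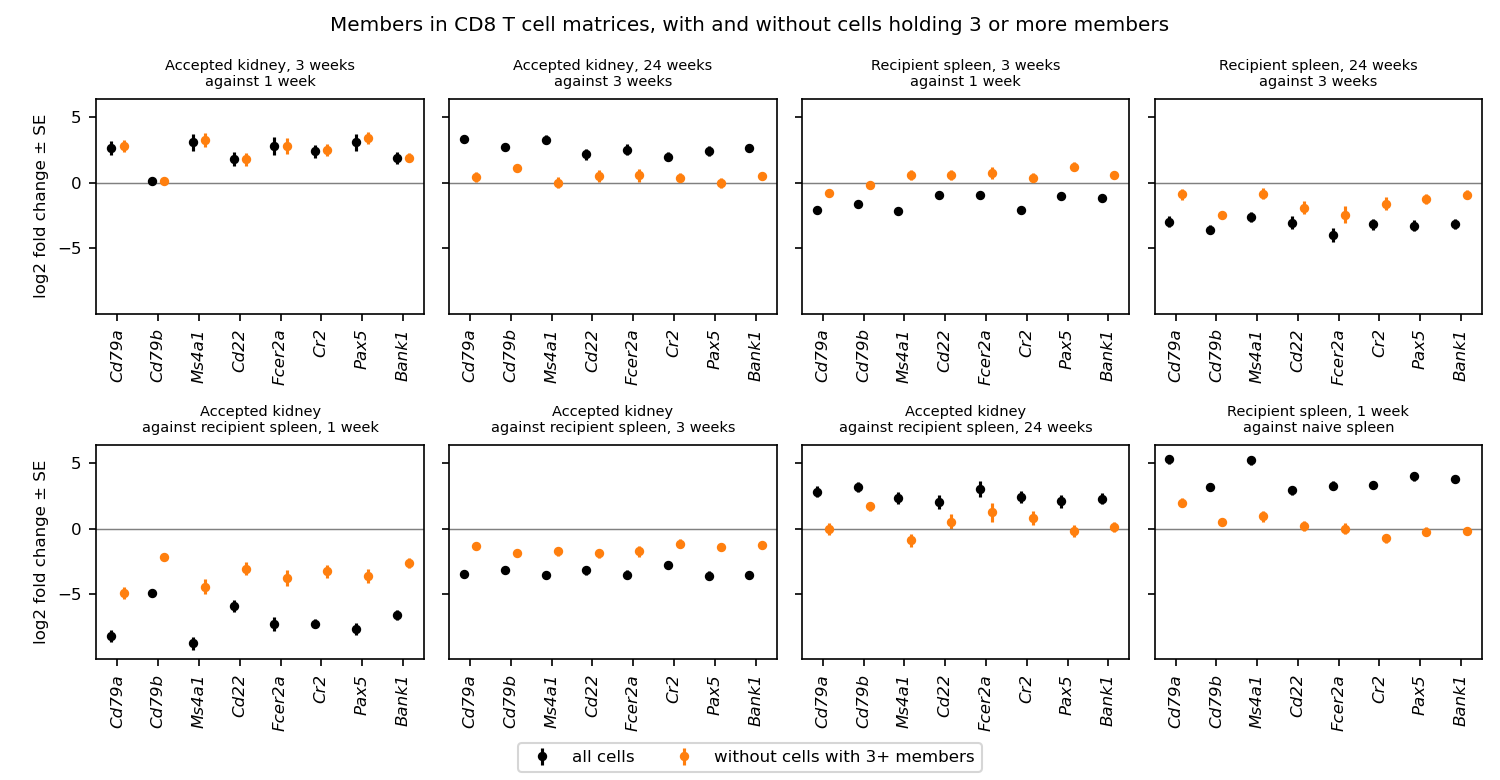
Log2 fold changes with SE (vertical axis) of the 8 members in 8 comparisons of the CD8 T cell matrices, with all cells (black) and without cells holding UMIs of 3 or more members (orange). The 2 sets of points nearly coincide in accepted kidney at 3 weeks against 1 week, and at 24 weeks against 3 weeks in kidney the orange points run from 0.011 for Pax5 to 1.13 for Cd79b.

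Cd79b stood apart from its partner Cd79a in most groups of cells with few members. In B cell-like cells of naive spleen there were 0.710 to 0.763 Cd79b UMIs for each Cd79a UMI over 5 libraries. In T cell-like cells of the same libraries there were 1.72 to 2.36, in the naive CD8 libraries 2.42 to 4.46, and in accepted kidney at 1 week 3.42 to 28.0 (400 Cd79b against 59 Cd79a UMIs in all). None of these ranges overlapped that of B cell-like cells. That of NK cell-like cells did, at 0.571 to 2.50, with only 48 Cd79a and 58 Cd79b UMIs over the 5 libraries. Within recipient spleen at 1 week the ratio was 0.643 to 0.681 in cells with 3 or more members and 0.909 to 1.55 in the other cells, and in the libraries labelled kidney at 24 weeks it was 0.584 to 0.717 and 1.59 to 2.17. The libraries labelled spleen at 24 weeks were an exception, at 0.355 to 0.765 in the other cells. Cells were divided here by the UMIs of the members, Cd79a and Cd79b among them. The ratios on the 2 sides therefore only describe that division. Of the 371 cells with a Cd79b UMI in accepted kidney at 1 week, 10 (2.70%) held another member, as did 13 (32.5%) of the 40 cells with a Cd79a UMI. Since 10 and 13 are close, these shares differ mostly by the number of cells they are taken of. They restate the unlike levels of the 2 genes. These shares were closer elsewhere, at 4.96% and 7.07% in accepted kidney at 3 weeks and 15.4% and 24.5% in naive spleen, and in the libraries labelled spleen at 24 weeks they ran the other way, at 10.8% and 8.70%. In naive CD8 libraries Cd79b reached 1.49% ± 0.352 of its level in B cell-like cells of the same library (SD, n = 5), Cd22 1.08% ± 0.558, Fcer2a 0.774% ± 0.124, Cd79a 0.368% ± 0.0810, and Ms4a1 0.255% ± 0.134. The share was higher for Cd79b, at 1.01% to 1.96% over the 5 libraries, than for Cd79a, at 0.273% to 0.456%, and the ranges did not overlap.

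As shares of all member UMIs, Cd79b made up 70.8% in accepted kidney at 1 week, 48.1% in rejecting kidney (25 of 52 UMIs), and 45.3% in naive spleen, against 20.1% in B cell-like cells. In accepted kidney at 3 weeks, where the other 7 members had risen, it made up 31.1%. Rejecting spleen differed in another way. There Bank1 made up 26.7%, 28.6%, and 29.6% of the member UMIs in R7S1 to R7S3, against 11.6% to 12.0% in B cell-like cells of naive spleen and 6.79% to 7.59% in accepted-recipient spleen at 1 week, with no overlap. Pax5 made up 16.7%, 19.0%, and 6.43% there, so only R7S1 and R7S2 stood above the 5.82% to 6.66% of B cell-like cells, and R7S2 was the library of 56 cells. Bank1 was at 151, 39.1, and 126 CPM in R7S1 to R7S3 and at 71.5, 77.8, and 39.5 CPM in 7S1 to 7S3, and these levels overlapped. The high Bank1 share was not particular to rejecting spleen. In B cell-like cells of rejecting kidney (clustering resolution 0.4, described below), Bank1 was at 1820 and Cd79a at 1202 CPM. In B cell-like cells of naive spleen they were at 943 and 2181 CPM. Rejecting and accepting recipients are of different strains, which cannot be told apart from rejection here.

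**Figure D4:**
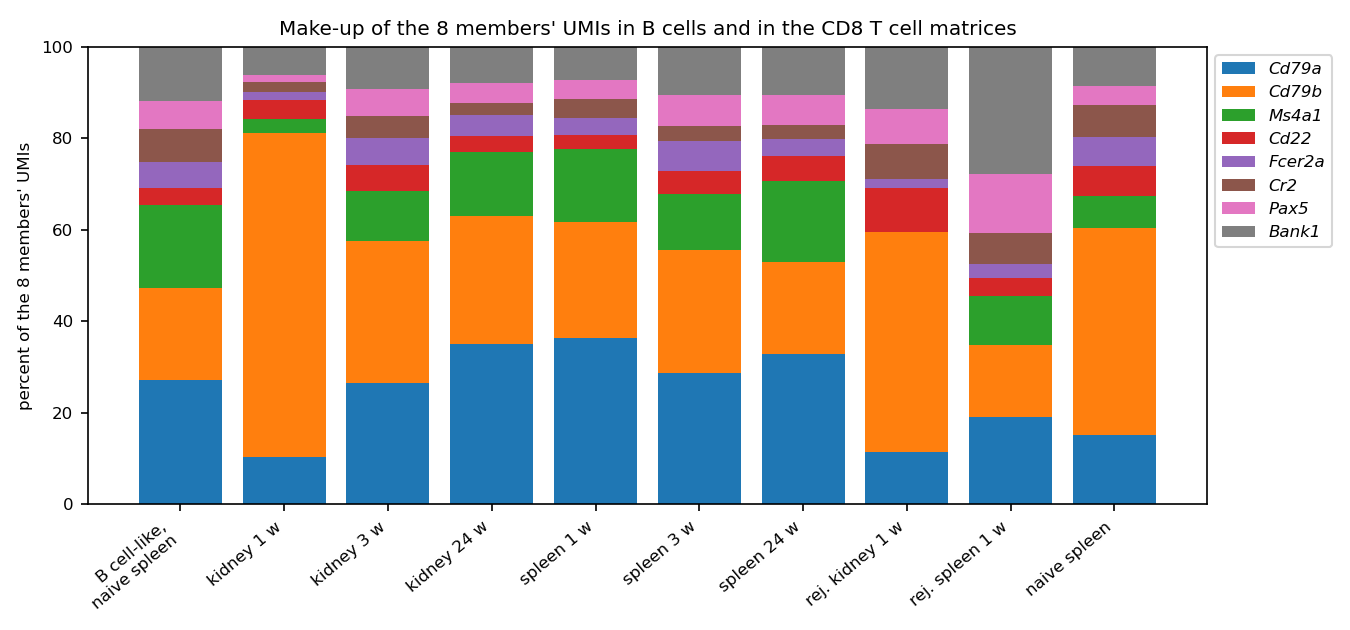
Percent of all UMIs of the 8 members (vertical axis, 0 to 100) that each member takes in B cell-like cells of naive spleen and in the 9 CD8 T cell matrices, pooled over libraries. Cd79b takes 70.8% in accepted kidney at 1 week against 20.1% in B cell-like cells, and Bank1 takes 27.8% in rejecting spleen.

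Over the 32 CD8 libraries, the genes whose level followed the mean of the 8 members most closely were Fcmr, Bcl11a, Scd1, Siglecg, and Mef2c, with Pearson r on log2(CPM + 1) of 0.973, 0.969, 0.968, 0.964, and 0.953 among 9089 genes ranked. These are descriptions, since the libraries share groups and depth. Fcmr had group means from 0.199 CPM in accepted kidney at 1 week to 78.1 CPM in recipient spleen at 1 week. The 13 B cell markers that named clusters, summed, had a median over libraries of 201 CPM in accepted kidney at 1 week, 246 CPM at 3 weeks, and 1597 CPM and 725 CPM in recipient spleen at these times. In rejecting kidney 4 of the 13 markers were at 0. Jchain had its highest median, 166 CPM, in the libraries labelled spleen at 24 weeks, over a range of 27.2 to 199 CPM that overlapped recipient spleen at 1 week.

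In the main clustering of the 11948 CD45+ cells of rejecting kidney, all members except Cd22 were at their highest level in 1 small cluster. Even so, the more numerous other cells held 76 Cd79a and 405 Bank1 UMIs. Cluster 13, with 142 cells (1.19%), was named B cell-like from its markers, but it was led by Siglech, Ly6d, and Cox6a2, and Siglech and Ccr9 are genes of plasmacytoid dendritic cells. A division of the cluster by Siglech, made after its values were seen, showed that 74 cells without a Siglech UMI held 103 Cd79a, 48 Cd79b, 45 Ms4a1, 58 Pax5, and 155 Bank1 UMIs. The 68 cells with a Siglech UMI held 0 Cd79a, 0 Ms4a1, 0 Fcer2a, 0 Cr2, 0 Pax5, 3 Cd79b, 3 Cd22, and 1 Bank1 UMI, and a count of 0 there allows up to 18.5 CPM. In the cells without it Cd79a was at 936 CPM (exact 95% Poisson interval, 764 to 1135), with 1057 CPM in R7K2 and 732 CPM in R7K3, and Bank1 was at 1409 CPM (1196 to 1649). At resolutions of 0.4 and 1.5 the B cell-like cluster held 61 and 60 cells, none with a Siglech UMI, and Cd79a at 1202 and 1226 CPM. With 2 libraries in 1 group, no test was made.

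Outside this cluster 11806 cells held Cd79a at 2.32 CPM (1.83 to 2.91) and Ms4a1 at 3.06 CPM. Bank1 was at 12.4 CPM there, with 23.2 CPM in R7K2 and 4.95 CPM in R7K3, and Cd79a was at 4.06 and 1.13 CPM, so R7K2 held more of both. Cluster 7, with 650 T cell-like cells led by Cd4, held Cd79a at 18.0 CPM and Bank1 at 39.6 CPM, again with more in R7K2 (33.3 and 72.7 CPM) than in R7K3 (2.96 and 7.39 CPM). By cluster, Cd22 was highest elsewhere in the main clustering. In cluster 12, 234 cells led by Ace, Cd300e, and Adgre4 and left unnamed, it was at 110 CPM (82.4 to 145), with 86.4 CPM in R7K2 and 198 CPM in R7K3, and 40 cells held its 52 UMIs. In cluster 13 it was at 73.5 CPM (44.9 to 113), an interval that overlaps that of cluster 12, and at 154 CPM (89.99 to 247) in the cells of cluster 13 without a Siglech UMI. In the other clusters besides 13 it was at 0.748 to 11.2 CPM. The B cell-like cluster at resolutions of 0.4 and 1.5, with no Siglech UMI, held Cd22 at 198 and 202 CPM. Both values were above the 110 CPM of cluster 12, so the exception for Cd22 is that of the main clustering. Levels of the other clusters at these 2 resolutions are not given here. Cd79a was at 12.7 CPM (4.67 to 27.7) and Ms4a1 at 4.24 CPM in cluster 12, and this cluster was singled out after its values were seen.

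**Figure D5:**
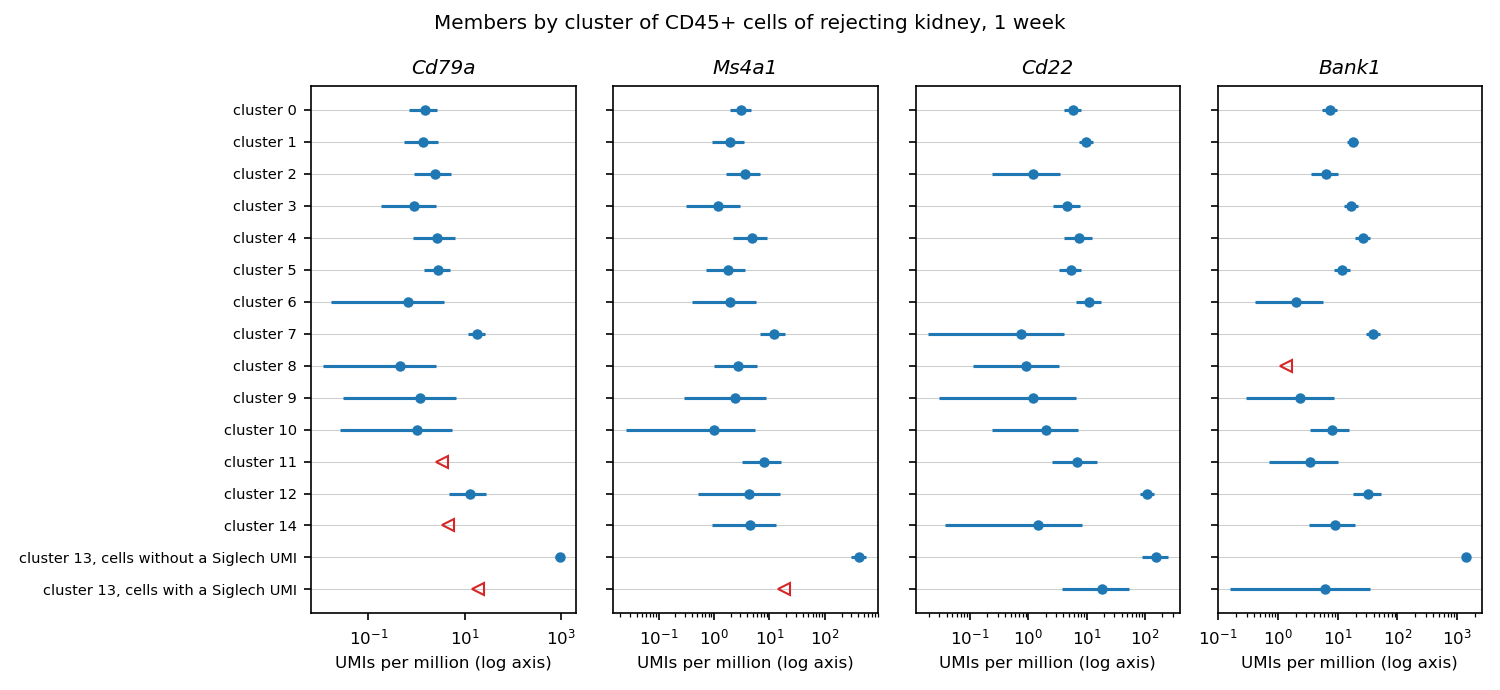
CPM (log axis) of Cd79a, Ms4a1, Cd22, and Bank1 in each cluster of CD45+ cells of rejecting kidney at 1 week, with cluster 13 divided by Siglech. Bars are exact 95% Poisson intervals that cover counting error only, and open triangles mark 0 UMIs, drawn at the level of 3 UMIs; Cd79a stands at 936 in cluster 13 cells without Siglech, and Cd22 at 110 in cluster 12.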

How the data were processed

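Single CD45+ cells were sequenced with the 10x 3′ chemistry. The deposited files hold UMI counts per gene and cell, not normalized, made by the authors with Cell Ranger against mm10 per the submitters' processing notes; the version is not given in the sources used here. Cells were assigned to libraries by the tags in their barcodes. The naive spleen libraries held 30054800 to 37016200 UMIs, and the 2 rejecting kidney libraries 13437100 and 19552600. CD45+ matrices of accepted grafts were not used here.

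Cells were clustered without the members with scanpy 1.11.5 (Python 3.11.15), at Leiden resolution 0.8, with 0.4 and 1.5 as alternatives. Scrublet marked 945 of 47060 naive cells (2.01%), which were kept, and left out in an alternative together with cells holding T cell or myeloid markers; it marked 1 of 11948 rejecting kidney cells and so did not work there. UMIs were summed per library and tested with edgeR 4.0.16 (R 4.3.3), with the quasi-likelihood test, plain library totals, genes filtered by expression, and Benjamini-Hochberg adjustment over all genes at 0.05. Library was a block in the subset comparisons. The steps were tested on simulated data. The alternatives were DESeq2 1.42.0, TMM scaling, no filter, totals without immunoglobulin genes, other subset rules, other cell filters, and leaving out each library. Values of 0 were read against a floor of 3 UMIs. Genes missing from the gene list of a CD8 matrix were counted as 0 there, also in the tests over all genes.

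All 8 members are named in every comparison, with the 3 listed program genes of smallest p in each subset comparison and the 5 genes most like the members. The members and lists were chosen with earlier results of these data known.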

Additional observations from a re-analysis of the deposited data

Results flagged for a closer look

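In the naive CD8 libraries Cd22 was at 6.66 CPM in NS4 and at 1.68 to 3.06 CPM in the other 4, a gap large enough for Dixon's test. Of 64 groups of 4 to 10 libraries tested, this was the only one, and chance gives about 1 in 20.

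The kidney-spleen difference changed between 3 and 24 weeks for all 8 members in a test of the change itself (edgeR, adjusted over all genes). The change on the log2 scale was 6.53 for Fcer2a, 6.32 for Cd79b, 6.29 for Cd79a, 5.88 for Ms4a1, 5.81 for Bank1, 5.67 for Pax5, 5.21 for Cd22, and 5.17 for Cr2, with adjusted p from 1.05e-14 for Cd79b to 6.40e-09 for Cd22. Kidney was lower at 3 weeks and the libraries labelled kidney were higher at 24 weeks for each member. These are the libraries whose kidney parenchyma genes went against their labels, and the change rests on the labelled direction: with the sign of the 24-week difference turned, it was 0.66 for Cd79a, -0.02 for Cd79b, 1.17 for Ms4a1, 1.10 for Cd22, 0.50 for Fcer2a, 0.30 for Cr2, 1.46 for Pax5, and 1.26 for Bank1, with 0 of 8 called by edgeR and 2 at an unadjusted p under 0.05. The kidney-spleen difference was -3.15 at 3 and 3.17 at 24 weeks for Cd79b, -3.48 and 2.81 for Cd79a, -3.52 and 3.01 for Fcer2a, -2.74 and 2.44 for Cr2, -3.52 and 2.35 for Ms4a1, -3.53 and 2.27 for Bank1, -3.56 and 2.10 for Pax5, and -3.15 and 2.05 for Cd22.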

How the results depend on the processing

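Of 665 values under other settings, 600 kept their direction and side of the threshold, and of 754 with 1 library left out, 740 did. For marginal zone cells 1 member was called with DESeq2 and 1 without the library block. Members that were not called changed sign there: Cd79b (0.041 with TMM, 0.063 with DESeq2), Bank1 (0.00094 and 0.022), Pax5 (0.020 with DESeq2), and Cd22 (-0.011 with the subset rule on unthinned UMIs, -0.0083 with 1 Cr2 UMI). For transitional cells 4 were called without doublets and cells with T cell or myeloid markers. Bank1 was also called there with TMM (-0.29), DESeq2 (-0.25), unthinned UMIs (-0.25), and cells thinned to 1000 UMIs (-0.32). In accepted kidney from 1 to 3 weeks Cd79b was at -0.24 with TMM and -0.20 with DESeq2.

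Without cells holding 3 or more members, 1 was called in the 24-week kidney comparison with 3 weeks, 1 in that with spleen at 24 weeks, and 2 each in spleen at 3 weeks against 1 week and spleen at 1 week against naive. Spleen at 3 weeks against 1 week turned to 0.59 for Ms4a1, 0.62 for Cd22, 0.76 for Fcer2a, 0.40 for Cr2, 1.23 for Pax5, and 0.60 for Bank1. Kidney against spleen at 24 weeks turned to -0.88 for Ms4a1 and -0.18 for Pax5. Spleen at 1 week against naive turned to -0.0023 for Fcer2a, -0.71 for Cr2, -0.21 for Pax5, and -0.19 for Bank1. In spleen at 24 weeks against 3 weeks, 6 were called. The shares of all genes called given in the Results are of the main fits and not of these settings. For rejecting against accepted kidney, 1 member was called with TMM, 1 without a filter, and 1 with DESeq2, each time Cd79b. There Pax5 turned to -2.99 without the cells of 3 or more members, and Fcer2a to 0.063 in cells with a Cd8 UMI. The cause of these changes was not tested.

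With 1 library left out, counts of called members ran from 2 to 3 for transitional cells and from 6 to 8 for spleen at 3 weeks against 1 week. Signs changed only for members that were not called: Cd79b in marginal zone cells (-0.018 to 0.0079), Cd22 in transitional cells (-0.11 to 0.036), and, in rejecting kidney, Cd79a (-0.37 to 0.44), Fcer2a (-3.67 to 0.98), and Bank1 (-0.94 to 1.96). The mean share of cells with a member UMI, thinned to 500 UMIs, was 0.588%, 1.53%, and 4.22% in accepted kidney at 1, 3, and 24 weeks, 7.49% in spleen at 3 weeks, 0.652% in rejecting kidney, and 3.20% in naive spleen. Without thinning it was 3.19%, 5.84%, and 18.8% in kidney, 26.6%, 28.4%, and 7.49% in spleen, 1.92% in rejecting kidney, and 20.1% in naive spleen. The plasma cell comparison could not be run without doublets and cells with T cell or myeloid markers. Only 1 to 4 plasma cells were left per library there, under the 10 needed. That setting left out 8935 of 29134 B lineage cells.

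With the sign of the 24-week difference turned, an alternative chosen after seeing the data, 0 members were called in the change of the kidney-spleen difference, and Cd79b was at -0.025.

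Tag numbers were tried as a replicate block, an alternative chosen after seeing the data. Of 11 same-numbered pairs of kidney and spleen libraries, 4 had a correlation over 0.1 (0.0283 to 0.335), and 8 of the 11 kidney libraries correlated best with the spleen library of their own number. This is a hint of pairing from the data and not from the design. Since not every pair passed 0.1 and no label ties tags to mice, the libraries were not treated as paired. With the block, 8 members were called at 1, 3, and 24 weeks and in the change of the difference, and Cd79a was at -8.04, -3.48, and 2.77. The shares of all genes called in the Results are not of the fit with this block.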
